A study of Mus musculus with 10 samples.

Results

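The glucuronosyltransferases, glutathione transferases and sulfotransferases are the main conjugating enzymes of the liver, and their genes were described across normal mouse liver and 2 kinds of liver tumour. The members were all protein-coding genes whose symbols belong to the Ugt1a, Ugt2a, Ugt2b, Ugt3a, Gsta, Gstk, Gstm, Gsto, Gstp, Gstt or Sult groups, chosen by name and not by expression. They numbered 64 of the 56748 genes in the table, of which 21 were UGT, 22 were GST and 21 were SULT genes. RNA sequencing covered 4 FVB wild-type normal livers, 3 Akt/Nras tumours and 3 Akt/Nras/Foxo1AAA tumours. The tumours had been made by hydrodynamic tail vein injection, which carries DNA into hepatocytes, and the labels give the genotype of all 10 samples as wild type. Both tumour groups received Akt and Nras. The Akt/Nras/Foxo1AAA group received Foxo1AAA as well, which is known as a form of the transcription factor FOXO1 that AKT cannot phosphorylate. The sources used here give neither age nor sex, nor the promoter of each injected construct, and the normal livers are not described as injected with an empty vector.

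These enzymes carry out the second phase of drug and hormone metabolism. UGT enzymes sit in the endoplasmic reticulum and transfer glucuronic acid from UDP-glucuronic acid to bilirubin, steroids, bile acids and drugs. GST enzymes join glutathione to reactive electrophiles, and SULT enzymes in the cytosol transfer sulfate from PAPS, the activated form of sulfate, to steroids, phenols and bile acids. In the liver the genes are known to be under HNF4, the receptors CAR, PXR and AHR, the oxidative stress factor NRF2 and the sex-dependent pattern of growth hormone.

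The libraries held 13585055 to 21262035 reads in genes each. Expression is given as the deposited FPKM, reads scaled by gene length and by a divisor of each library. The divisor, taken relative to the reads in genes, was 0.629 to 0.668 for normal liver. For Akt/Nras libraries it was 1.002 to 1.061, and for Akt/Nras/Foxo1AAA libraries 0.875 to 0.928. The deposited scaling thus differed between the groups without overlap, and its part in the FPKM totals was not tested. Added over all genes, FPKM came to 692010 to 743203 (normal liver), 349619 to 381653 (Akt/Nras) and 413812 to 444893 (Akt/Nras/Foxo1AAA), so that calls that changed when every library was rescaled to an equal total are also given. That rescaling moved the median log2 change of all tested genes from -0.07 to 0.72 for Akt/Nras tumours and from -0.09 to 0.48 for Akt/Nras/Foxo1AAA tumours. The hepatocyte markers, 12 genes including Alb, together had 85566 to 90581 FPKM in the normal livers, 47764 to 49133 in the Akt/Nras and 58902 to 72798 in the Akt/Nras/Foxo1AAA tumours, and none was at 0. The cholangiocyte markers, 10 genes dominated by Spp1, together had 16.9 to 25, 4131 to 5810 and 2665 to 5388 FPKM in the same order. Of the cholangiocyte markers 1 was at 0 in every normal liver and none was at 0 throughout a tumour group. Both sets of sums are on the deposited scale and were not rescaled to equal totals. The total over all genes was also lower in the tumours, so the lower hepatocyte sum is not by itself a lower share of that total. In bulk tissue, fewer cells of a type and less RNA per cell cannot be told apart, and the part of cell makeup in the results on the transferase genes was not tested. Nothing in the labels says that the samples of a group came from separate animals, so p-values speak only of the scatter among these samples, which may be technical.

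Promoters are shown for 2 pairs of members that moved in opposite directions in the tumours, Gstp3 and Gstp1, and Gsta3 and Gstm5, and for Sult1d1, the tested member with both an AHR and a FOXO core. Gsta3 and Gstm5 share an antioxidant response element core, the site that NRF2 binds. RefSeq promoters, 250 bases before to 50 after each start, were available for 55 of the 64 members in the build GRCm38.p6. They were searched on both strands for the antioxidant core TGACNNNGC, the AHR core GCGTG and the FOXO core GTAAACA. Capitals mark every match to any of the 3 motifs, and the bases run 5′ to 3′ along the gene's own strand.
Gstp3, chr19:4059398-4059697, minus strand, AHR core from -235: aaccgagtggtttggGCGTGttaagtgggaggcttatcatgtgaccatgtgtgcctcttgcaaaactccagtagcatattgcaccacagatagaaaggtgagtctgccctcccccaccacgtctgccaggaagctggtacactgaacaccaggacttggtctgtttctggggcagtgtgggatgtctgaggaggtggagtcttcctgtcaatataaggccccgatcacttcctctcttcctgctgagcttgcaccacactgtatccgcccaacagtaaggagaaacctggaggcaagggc
Gstp1, chr19:4037863-4038162, minus strand, AHR core from -13: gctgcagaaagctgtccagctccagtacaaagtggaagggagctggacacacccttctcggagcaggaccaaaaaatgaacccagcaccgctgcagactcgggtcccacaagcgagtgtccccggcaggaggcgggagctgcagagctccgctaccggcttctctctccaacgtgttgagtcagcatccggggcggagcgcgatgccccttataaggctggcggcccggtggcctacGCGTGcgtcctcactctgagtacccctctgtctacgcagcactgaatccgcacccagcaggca
Sult1d1, chr5:87568957-87569256, minus strand, AHR core from -47 and FOXO core from 33: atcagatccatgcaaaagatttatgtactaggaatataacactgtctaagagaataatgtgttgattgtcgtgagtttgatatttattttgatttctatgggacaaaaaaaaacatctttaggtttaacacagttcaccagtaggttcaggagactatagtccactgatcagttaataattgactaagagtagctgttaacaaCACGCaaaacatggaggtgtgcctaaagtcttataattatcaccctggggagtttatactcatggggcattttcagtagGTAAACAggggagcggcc
Gsta3, chr1:21240335-21240634, plus strand, antioxidant core from -121: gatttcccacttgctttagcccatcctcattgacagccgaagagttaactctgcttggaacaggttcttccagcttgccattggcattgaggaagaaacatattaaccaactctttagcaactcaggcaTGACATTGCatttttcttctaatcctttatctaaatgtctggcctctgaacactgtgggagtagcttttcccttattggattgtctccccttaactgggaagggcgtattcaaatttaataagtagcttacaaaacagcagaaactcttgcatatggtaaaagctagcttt
Gstm5, chr3:107895604-107895903, plus strand, AHR cores from -171 and -38 and antioxidant core from -42: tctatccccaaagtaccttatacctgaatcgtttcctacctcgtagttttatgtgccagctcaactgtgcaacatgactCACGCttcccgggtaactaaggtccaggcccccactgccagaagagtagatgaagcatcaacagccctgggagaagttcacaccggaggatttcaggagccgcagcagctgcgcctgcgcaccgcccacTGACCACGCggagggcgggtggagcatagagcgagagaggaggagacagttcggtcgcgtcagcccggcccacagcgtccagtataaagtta

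Positions are those of the first base of a match, counted from the start of the gene. In Gstm5 the second AHR core lies within the antioxidant core, so both are covered by 1 stretch of capitals. The antioxidant core was in 12.4% of all promoters and in 3 of the 55 members (Gsta3, Gstm5 and Gstm7). The AHR core was in 32.4% of all promoters and in 11 members, and the FOXO core was in 3.65% of all promoters and in 5 members. A member counted where any of its promoters held the core, while the shares count every promoter singly, so the rates are not in the same unit. Here all promoters means those searched, which did not cover every chromosome. A match is a description of the letters and not of a bound site. The FOXO core members were Sult1d1, Ugt1a2, Ugt2b35, Ugt2b37 and Ugt2b38. None of the 5 passed the test between the tumour groups, and Ugt1a2 was too low to be tested.

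A gene was tested where it reached 1 FPKM in at least 3 libraries, which 43 members did (15 UGT, 20 GST and 8 SULT) and 21 did not. Differences were tested with limma on log2(FPKM + 1) over all 12439 genes tested, and a gene was called at a Benjamini-Hochberg adjusted p under 0.05. Gstt4, Sult2a4, Ugt2a1 and Ugt2a2 were listed at 0 in all libraries. Sult5a1 and Ugt1a10 passed the filter through normal liver alone, and Gsta1, Gsta5 and Sult4a1 through tumours alone. Sult1e1, at 1.01 FPKM in a single normal liver and lower in the rest, also needed the tumours to pass. Ugt1a5 reached 1 FPKM in tumours only at 1.43 and 1.02, so it needed the normal livers. Their calls follow in part from that.

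In Akt/Nras tumours, 27 of the 43 tested members were lower than in normal liver, against 37.9% of all genes tested, and 7 were higher, against 31.1%. In Akt/Nras/Foxo1AAA tumours 25 were lower, against 36.5% of all genes, and 7 were higher, against 26.8%. In either direction, 34 and 32 were called, against 69% and 63.3% of all genes. The median log2 change of the tested members was -1.24 and -1.12. A fall by at least 1 on the log2 scale was seen for 25 and 24 members, against 15.5% and 11.9% of all genes, and a rise of that size for 5 in each, against 13.5% and 10.7%. The same 7 genes rose in both comparisons: Gsta1, Gsta5, Gstm3, Gstm5, Gstp1, Sult1e1 and Sult4a1. Both comparisons use the same 4 normal livers. After rescaling to equal totals, 22 and 23 members were still called lower, against 12.9% and 12.7% of all genes, and 14 and 17 were called higher, against 70.7% and 62.1%.

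**Figure D1:**
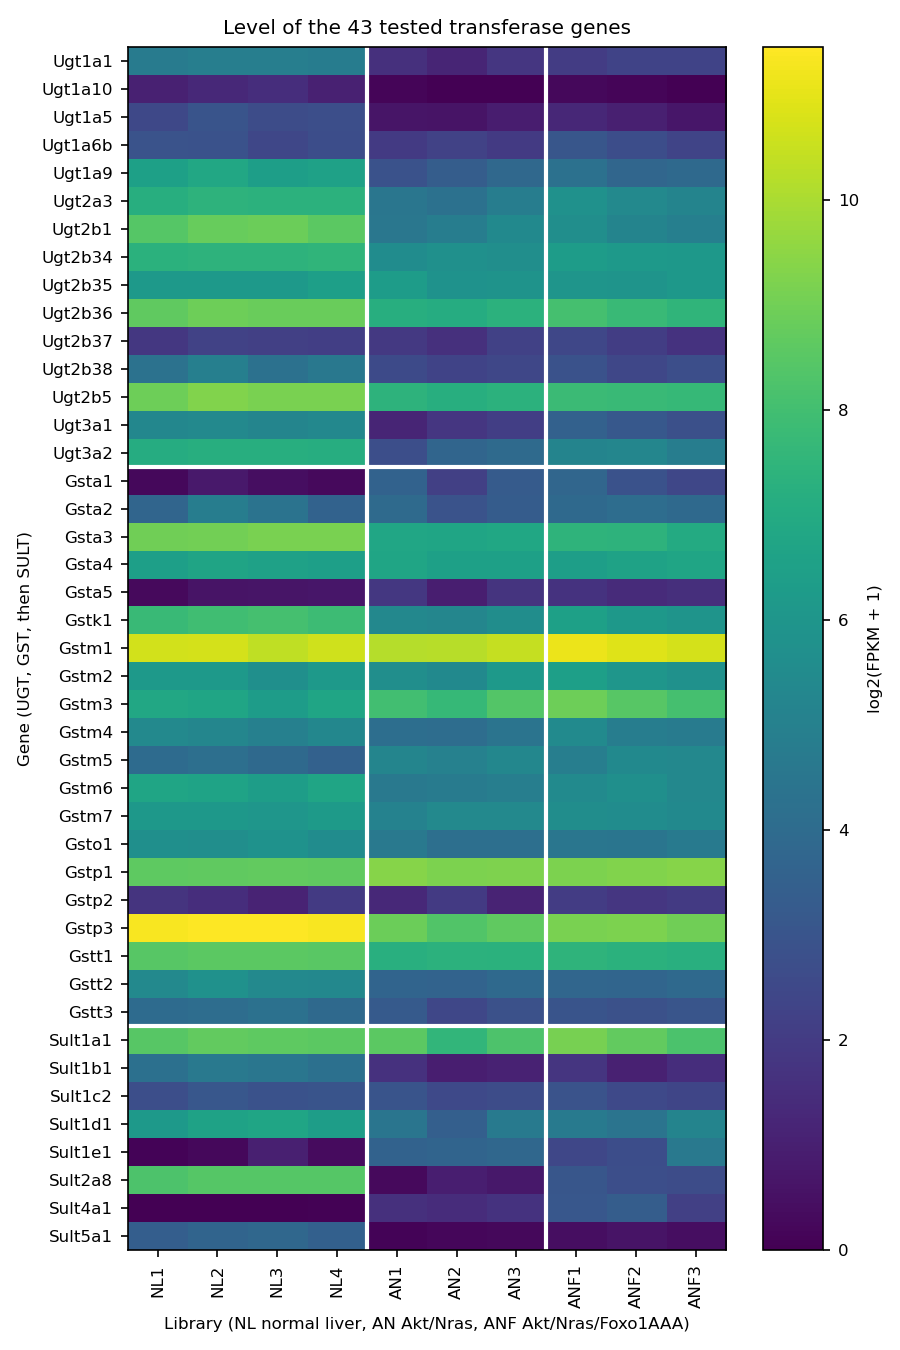
Level of the 43 tested transferase genes (rows; UGT, then GST, then SULT, divided by white lines) in each of the 10 libraries (columns), as log2(FPKM + 1). Gstp3 and Gstm1 are the brightest rows in normal liver, and Gstp3 and Sult2a8 darken in all 6 tumours.

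The UGT genes fell as a family. Of the 15 tested, 13 were lower in Akt/Nras tumours and 12 in Akt/Nras/Foxo1AAA tumours, against 37.9% and 36.5% of all genes. None was higher by limma, against 31.1% and 26.8%, and at an unadjusted p under 0.05 the number higher was also 0. The summed UGT FPKM was 2170.3 ± 160 (SD, n = 4) in normal liver, 509.9 ± 39.0 (n = 3) in Akt/Nras tumours and 733.0 ± 90.7 (n = 3) in Akt/Nras/Foxo1AAA tumours. The 3 ranges did not overlap. The order was kept with equal totals, at 1592.7, 734.4 and 887.6. With equal totals 2 UGT genes were called higher in Akt/Nras and 3 in Akt/Nras/Foxo1AAA tumours, beside 11 called lower in each. The shares over all genes were then 70.7% and 62.1% higher, and 12.9% and 12.7% lower.

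The Ugt1a genes lie on chromosome 1 and share their last exons behind separate first exons, so 52.1% to 79.8% of the 50-base windows of each also occur in another gene and reads could be split between them. Ugt1a1, the enzyme that conjugates bilirubin, was at 26.1, 28.7, 29.0 and 27.4 FPKM in the normal livers. It was at 2.0, 1.26 and 2.55 in the Akt/Nras tumours and at 3.15, 4.00 and 4.00 in the Akt/Nras/Foxo1AAA tumours. Every tumour was below every normal liver, and the tumour groups did not overlap. The log2 change was -3.32 ± 0.14 (SE, limma adjusted p = 2.12e-08) for Akt/Nras, 14.3-fold lower in mean FPKM, and -2.61 ± 0.14 (adjusted p = 1.59e-07) for Akt/Nras/Foxo1AAA.

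Ugt1a9, which glucuronidates phenols and bulky drugs, was the most abundant gene of the cluster. Its values were 89.3, 115, 84.8 and 92.4 FPKM in the normal livers, 6.41, 9.32 and 13.6 in the Akt/Nras tumours and 18.4, 12.6 and 14.2 in the Akt/Nras/Foxo1AAA tumours. Both tumour groups were below normal liver, by -3.20 ± 0.21 and -2.59 ± 0.21 on the log2 scale (limma adjusted p = 3.50e-07 and 2.59e-06), while the tumour groups overlapped. Ugt1a10 fell from 1.05 to 1.84 FPKM in normal liver to at most 0.17 FPKM in any tumour, and with equal totals it was below the filter and not tested. Ugt1a5 had means of 5.60, 0.663 and 1.03 FPKM and was also lower in both. Ugt1a6b was called lower in Akt/Nras tumours (by -0.68 on the log2 scale, limma adjusted p = 0.00564) and not in Akt/Nras/Foxo1AAA tumours (-0.04, adjusted p = 0.858 by limma). With equal totals the first change was 0.11 and not called, and the second was 0.57 and called higher (adjusted p = 0.0136 by limma). The other Ugt1a genes, Ugt1a2, Ugt1a6a, Ugt1a7c and Ugt1a8, were too low to be tested.

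The Ugt2 genes on chromosome 5 handle steroids, bile acids and fatty acids and made up most of the UGT transcripts. Ugt2b5 was the most abundant in normal liver, at 494, 616, 567 and 562 FPKM. It was at 169, 145 and 164 in the Akt/Nras tumours and 225, 216 and 202 in the Akt/Nras/Foxo1AAA tumours, so that the 3 groups were separate. Its log2 change was -1.80 ± 0.10 and -1.38 ± 0.10 (limma adjusted p = 1.01e-07 and 1.07e-06). Reads of Ugt2b5 are uncertain, since 41.7% of its windows occur in other genes.

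Ugt2b1 fell further than any other tested Ugt2b gene in both comparisons. Its values were 349.9, 439, 470.5 and 385 FPKM in the normal livers. They were 22.5, 27.6 and 41.9 in the Akt/Nras tumours and 48.9, 35.4 and 29.4 in the Akt/Nras/Foxo1AAA tumours, which overlapped. The log2 change was -3.74 ± 0.22 and -3.43 ± 0.22 (limma adjusted p = 1.48e-07 and 4.97e-07), and none of its windows is shared with another gene. Its share of the summed UGT FPKM went from 18.9% ± 1.58 in normal liver to 5.97% ± 1.60 and 5.11% ± 0.706, a ratio that does not depend on the scaling of a library.

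Ugt2b35 and Ugt2b37 were the tested Ugt2 genes not called lower. The means of Ugt2b35 were 75.8, 64.3 and 64.0 FPKM, and the changes of -0.25 and -0.24 were not called (limma adjusted p = 0.104 and 0.121). Its share of the UGT total was 3.51% ± 0.421 in normal liver, 12.6% ± 2.51 in Akt/Nras and 8.86% ± 1.59 in Akt/Nras/Foxo1AAA tumours, with no overlap with normal liver. Ugt2b37, at 2.05 to 4.48 FPKM in all libraries, was not called either, and its share went from 0.153% ± 0.0121 to 0.546% ± 0.117 and 0.44% ± 0.102. With equal totals both genes were called higher in both tumour groups, Ugt2b35 by 0.71 and 0.48 and Ugt2b37 by 0.53 and 0.49 on the log2 scale. Ugt2b34, Ugt2b36 and Ugt2b38 were lower in both tumour groups, by -1.74, -1.62 and -2.10 in Akt/Nras and by -1.19, -1.03 and -1.85 in Akt/Nras/Foxo1AAA tumours. Ugt2a3, a bile acid glucuronosyltransferase, went from 143 to 167 FPKM in normal liver to 18.3 to 28.3 and 34.5 to 55.2, with log2 changes of -2.78 and -1.87 (limma adjusted p = 2.06e-07 and 5.39e-06).

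The Ugt3a genes on chromosome 15 encode enzymes that use other UDP sugars than UDP-glucuronic acid. Ugt3a2 was at 138, 146, 145 and 139 FPKM in the normal livers, 5.84, 12.3 and 14.8 in the Akt/Nras tumours and 35.3, 37.0 and 27.7 in the Akt/Nras/Foxo1AAA tumours. Ugt3a1 was at 38.2, 41.5, 36.3 and 39.9, at 1.28, 2.51 and 3.32, and at 10.9, 7.88 and 5.90 FPKM. Both were separate in all 3 groups. The log2 changes against normal liver were -3.66 ± 0.24 and -3.62 ± 0.22 in Akt/Nras tumours (limma adjusted p = 2.87e-07 and 1.91e-07) and -2.07 ± 0.24 and -2.15 ± 0.22 in Akt/Nras/Foxo1AAA tumours (adjusted p = 2.60e-05 and 1.19e-05).

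**Figure D2:**
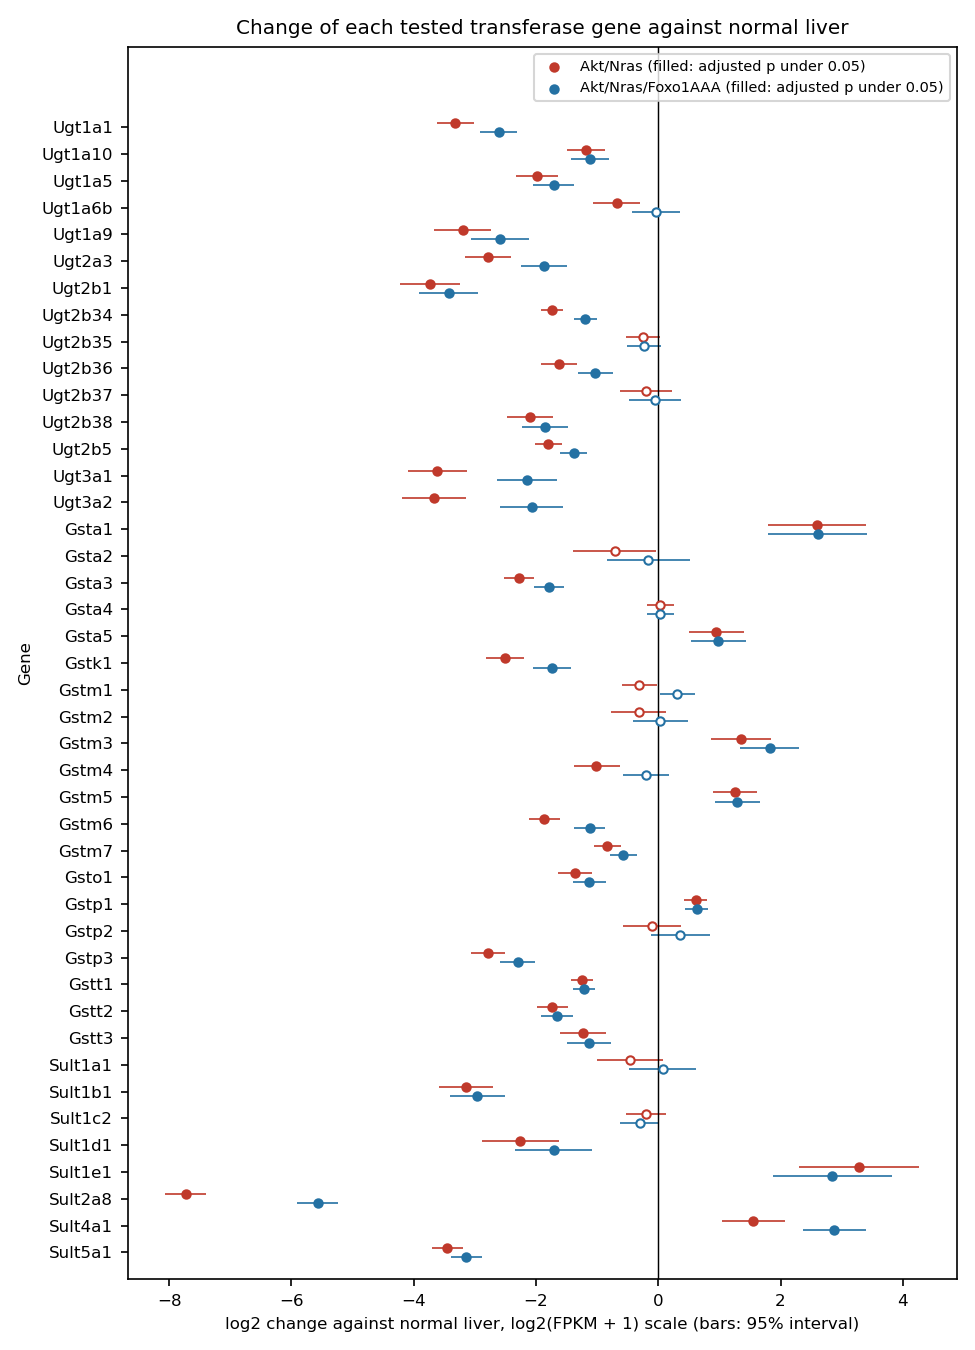
Log2 change of each tested transferase gene against normal liver, on the log2(FPKM + 1) scale, for Akt/Nras (red) and Akt/Nras/Foxo1AAA tumours (blue), with 95% intervals; filled points passed an adjusted p under 0.05. Nearly all UGT points lie left of 0, GST points lie on both sides, and Sult2a8 lies furthest left at -7.73 and -5.57.

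The GST genes moved in both directions. Of 20 tested, 10 were lower and 5 higher in Akt/Nras tumours, and 9 were lower and 5 higher in Akt/Nras/Foxo1AAA tumours. These counts lie near the shares over all genes, 37.9% lower and 31.1% higher in the first comparison and 36.5% and 26.8% in the second. The summed GST FPKM was 6411.6 ± 145 (SD, n = 4) in normal liver, 3164.4 ± 249 (n = 3) in Akt/Nras tumours and 4259.2 ± 414 (n = 3) in Akt/Nras/Foxo1AAA tumours. This difference depended on the scaling: with equal totals the means were 4710.9, 4557.2 and 5160.0. With equal totals 7 GST genes were lower and 8 higher in Akt/Nras tumours, and 8 lower and 10 higher in Akt/Nras/Foxo1AAA tumours. The shares over all genes were then 12.9% and 70.7%, and 12.7% and 62.1%.

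The Gstp genes on chromosome 19 exchanged places. Gstp3 was the most abundant member in normal liver, at 2586, 2748, 2814 and 2633 FPKM. It was at 465, 320.0 and 399.9 in the Akt/Nras tumours and 569.9, 579 and 495 in the Akt/Nras/Foxo1AAA tumours, a log2 change of -2.78 ± 0.13 and -2.30 ± 0.13 (limma adjusted p = 3.68e-08 and 2.14e-07). Every tumour was below every normal liver, and no window of Gstp3 is shared with another gene. Gstp1, the pi-class enzyme long used as a marker of preneoplastic and neoplastic liver in rats, moved the other way. It was at 395, 405, 415 and 402 FPKM in the normal livers, 655, 587 and 611 in the Akt/Nras tumours and 587, 628 and 663 in the Akt/Nras/Foxo1AAA tumours. The rise of 0.61 ± 0.08 and 0.63 ± 0.08 (limma adjusted p = 7.51e-05 and 7.79e-05) was small in fold, at 1.53 and 1.55, and exceeded the spread, since the tumours did not overlap normal liver.

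Gstp1 shares 33.7% of its windows with other genes, most with Gstp2, which had 1.22 to 3.12 FPKM and was not called, although with equal totals it was called higher in Akt/Nras/Foxo1AAA tumours (0.85). A processed pseudogene, Gstp-ps on chromosome 1, had means of 184, 253 and 277 FPKM in the 3 groups. Within the summed GST FPKM, Gstp3 went from 42.0% ± 1.62 in normal liver to 12.5% ± 1.99 and 12.9% ± 0.733 in the tumours. Gstp1 went from 6.31% ± 0.185 to 19.6% ± 1.48 and 14.9% ± 2.34. In Akt/Nras tumours all 3 libraries had more Gstp1 than Gstp3, and all 4 normal livers had less.

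The Gstm genes, the mu class on chromosome 3, divided as well. Gstm1 had the highest level of all members in the tumours, at 1151, 1203 and 1403 FPKM in Akt/Nras and 2196, 1894 and 1709 in Akt/Nras/Foxo1AAA tumours, against 1621, 1678, 1333 and 1578 in the normal livers. The Akt/Nras tumours overlapped normal liver and the Akt/Nras/Foxo1AAA tumours lay just above it. Neither change was called (log2 -0.31 and 0.31, limma adjusted p = 0.0538 and 0.0549), but both passed the threshold under several alternatives, with voom on recovered reads at the same -0.31 and 0.31. With equal totals they were 0.66 and 1.04, both called higher, so that the direction in Akt/Nras tumours rests on the scaling. Some 18.9% of its windows are shared, most with the pseudogene Gstm2-ps1.

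Gstm3 rose most in this class. Its values were 115, 104, 80.6 and 106 FPKM in the normal livers, 254, 203 and 336 in the Akt/Nras tumours and 485, 355 and 270.5 in the Akt/Nras/Foxo1AAA tumours. The tumours lay above every normal liver and overlapped each other, with log2 changes of 1.35 ± 0.22 and 1.83 ± 0.22 (limma adjusted p = 0.000243 and 3.62e-05). Reads of Gstm3 could be shared with the pseudogene Gm8834, since 28.8% of its windows occur elsewhere. Gstm5, whose promoter with the antioxidant core is shown above, rose from 10.9 to 17.4 FPKM to 31.8 to 38.4 and 28.7 to 42.9 (log2 changes 1.25 and 1.29, limma adjusted p = 5.43e-05 and 5.71e-05).

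Gstm6 fell, from 107, 101, 82.8 and 104 FPKM to 24.0, 26.2 and 28.5 and to 44.1, 50.7 and 39.4, with 3 separate groups and log2 changes of -1.87 and -1.12 (limma adjusted p = 2.28e-07 and 1.33e-05). Gstm7 was lower in both tumour groups (-0.83 and -0.57) and Gstm4 in Akt/Nras tumours alone (-1.01, limma adjusted p = 0.000306), but with equal totals these changes were 0.12, 0.14 and -0.07 and none was called. With equal totals Gstm4 was called higher in Akt/Nras/Foxo1AAA tumours (0.51). Gstm2 was not called in either comparison, and with equal totals it was called higher in both (0.64 and 0.74).

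Among the alpha-class genes, Gsta3 was the one called lower. It was at 507, 511, 569 and 562 FPKM in the normal livers, 110.5, 107 and 112 in the Akt/Nras tumours and 173, 167 and 128 in the Akt/Nras/Foxo1AAA tumours. The 3 groups were separate, and the log2 changes were -2.28 ± 0.11 and -1.79 ± 0.11 (limma adjusted p = 4.65e-08 and 3.98e-07). Gsta1, in contrast, rose from 0.179, 0.7, 0.328 and 0.237 FPKM (13 reads in all) to 11.1, 3.47 and 8.88 and to 12.6, 6.5 and 4.39 FPKM. The log2 changes were 2.59 ± 0.36 and 2.61 ± 0.36 (limma adjusted p = 8.72e-05 and 0.00011). However, 90.5% of the windows of Gsta1 also occur in other genes, most in the neighbouring gene Gm3776, so that its reads are uncertain. Gm3776 rose as well, with means of 0.568, 4.7 and 5.7 FPKM in the 3 groups, and was called higher in both.

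Gsta5 rose from 0.239 to 0.634 FPKM to 0.943 to 2.66 and 1.67 to 2.21. Gsta4, which detoxifies the lipid peroxidation product 4-hydroxynonenal, was at 93.1 ± 6.83, 95.3 ± 7.82 and 95.2 ± 10.5 FPKM. Its changes were not called (log2 0.03 in each, with a 95% interval of -0.19 to 0.25), although with equal totals it was called higher in both tumour groups. Gsta2 was not called.

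The remaining cytosolic classes and the mitochondrial and peroxisomal kappa class were lower. Gstk1, the kappa-class gene, was at 217, 244, 267 and 233 FPKM in the normal livers, 39.3, 37.9 and 47.9 in the Akt/Nras tumours and 89.5, 67.4 and 60.4 in the Akt/Nras/Foxo1AAA tumours (log2 changes -2.50 and -1.73, limma adjusted p = 1.17e-07 and 2.39e-06). Gstt1, of the theta class, was at 353, 386, 379 and 367, at 147, 163 and 158 and at 172, 159 and 148 FPKM. Gsto1, of the omega class, was at 50.8, 49.9, 55.7 and 47.3, at 24.0, 17.2 and 17.2 and at 21.6, 21.1 and 25.8 FPKM. In these 3 genes no tumour reached the lowest normal liver, and only Gstk1 was separate between the tumour groups. Gstt2 fell by 1.73 and 1.66 on the log2 scale and Gstt3 by 1.23 and 1.13, although Gstt3 in Akt/Nras tumours was not called with equal totals (-0.35, limma adjusted p = 0.0673). Gsto2 was too low to be tested.

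**Figure D3:**
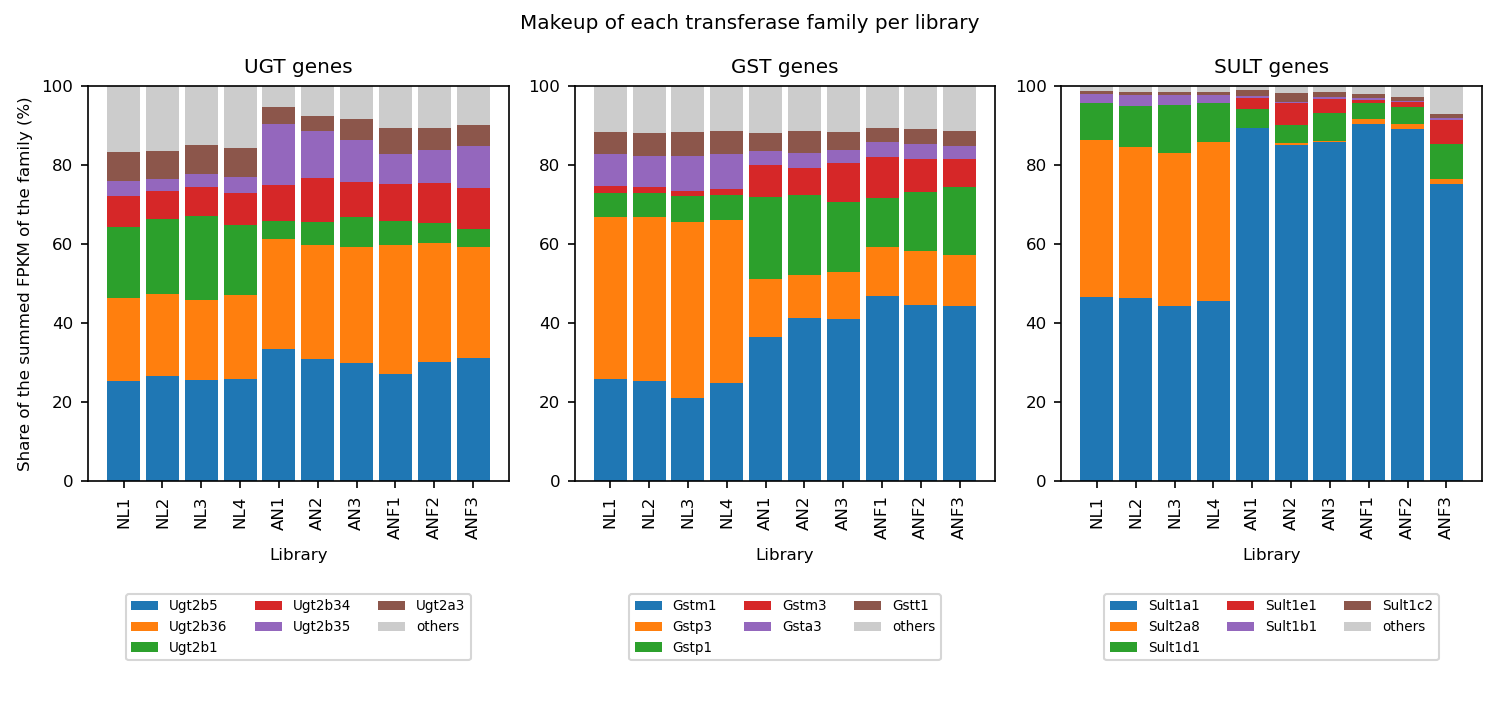
Share of each family's summed FPKM (%) taken by its 6 most abundant genes and by the others, in each library (NL normal liver, AN Akt/Nras, ANF Akt/Nras/Foxo1AAA). Gstp3 shrinks from about 42.0% to 12.5% of the GST total and Sult2a8 from 39.3% to 0.223% of the SULT total between normal liver and Akt/Nras tumours.

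Of the 21 SULT genes 8 were tested, and 4 fell and 2 rose in each comparison with normal liver, near the shares over all genes (37.9% lower and 31.1% higher, then 36.5% and 26.8%). The summed SULT FPKM was 851.9 ± 56.5 (SD, n = 4), 336.7 ± 106 (n = 3) and 490.2 ± 107 (n = 3). With equal totals the means were 625.3, 483.1 and 592.6, so that the normal livers and the Akt/Nras/Foxo1AAA tumours came close to each other. The largest part of the difference lay in 1 gene, Sult2a8.

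Sult2a8, a sulfotransferase of bile acids on chromosome 7, had the largest change of all members. Its values were 307, 345, 345 and 342 FPKM in the normal livers. They were 0.222, 0.959 and 0.657 in the Akt/Nras tumours, from 12, 56 and 46 reads, and 7.28, 5.71 and 5.33 in the Akt/Nras/Foxo1AAA tumours, from 434, 335 and 250 reads. The 3 groups were far apart, by 546-fold and 54.8-fold in mean FPKM from normal liver. The log2 change was -7.73 ± 0.15 (limma adjusted p = 3.46e-10) and -5.57 ± 0.15 (adjusted p = 4.16e-09). Of its windows 1.7% are shared with other genes.

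Sult5a1 fell from 9.72, 12.1, 13.4 and 10.6 FPKM to 0.0826, 0.14 and 0.17 and to 0.349, 0.532 and 0.333, a log2 change of -3.45 and -3.14 (limma adjusted p = 5.65e-09 and 1.47e-08). Sult1b1, which sulfates thyroid hormones and phenols, fell from 17.5, 23.9, 21.6 and 17.9 FPKM to 2.14, 0.971 and 1.16 and to 2.44, 1.09 and 1.79 (-3.15 and -2.96, limma adjusted p = 2.66e-07 and 7.35e-07). Sult1d1, whose promoter with the AHR and FOXO cores is shown above and whose enzyme acts on catecholamines, was at 89.0 ± 14.9, 18.8 ± 7.94 and 26.9 ± 7.79 FPKM. Its log2 changes were -2.26 ± 0.28 and -1.71 ± 0.28 (limma adjusted p = 3.92e-05 and 0.000379). For these 3 genes no tumour reached the lowest normal liver.

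Sult1a1, the main phenol sulfotransferase, was not called. It was at 362, 417, 391 and 384 FPKM in the normal livers, 384, 187 and 309 in the Akt/Nras tumours and 549.5, 414 and 299 in the Akt/Nras/Foxo1AAA tumours. The groups overlapped, with log2 changes of -0.46 and 0.07 (limma adjusted p = 0.116 and 0.807) and a wide spread among the tumours. Its share of the SULT total was 45.6% ± 1.11 in normal liver, 86.8% ± 2.33 in Akt/Nras and 84.9% ± 8.45 in Akt/Nras/Foxo1AAA tumours. Sult1c2 was not called. With equal totals Sult1a1 was called higher in Akt/Nras/Foxo1AAA tumours (0.80, adjusted p = 0.00713 by limma) and Sult1c2 in Akt/Nras tumours (0.64, adjusted p = 0.00109 by limma).

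Sult1e1, the oestrogen sulfotransferase, rose. It was at 0.0688, 0.179, 1.01 and 0.274 FPKM in the normal livers, 18 reads in all, of which 12 were in replicate 3. It was at 11.1, 12.1 and 13.2 FPKM in the Akt/Nras tumours and 4.48, 5.59 and 24.0 in the Akt/Nras/Foxo1AAA tumours. Every tumour exceeded every normal liver, and the log2 change was 3.29 ± 0.44 and 2.85 ± 0.44 (limma adjusted p = 6.52e-05 and 0.000236). Replicate 3 of the Akt/Nras/Foxo1AAA tumours stood far above the other two. Sult4a1, known from brain and without a settled substrate, had 1 read over the 4 normal livers. It had 2.01, 1.72 and 2.19 FPKM in the Akt/Nras tumours and 7.68, 9.51 and 3.48 in the Akt/Nras/Foxo1AAA tumours, from 277 and 902 reads, and was called higher in both (log2 1.55 and 2.88, limma adjusted p = 0.000145 and 2.38e-06).

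The other 13 SULT genes were below the filter. Sult3a1 was at 0 to 0.0964 FPKM in the normal livers, at 0.0487 to 0.365 in the Akt/Nras and at 0.62, 0.823 and 14.2 in the Akt/Nras/Foxo1AAA tumours, so that 234 of the 264 reads of the last group came from replicate 3. The same library also had the highest Sult2a1 (1.92 FPKM), Sult2a2 (2.65 FPKM) and Sult3a2 (3.24 FPKM), all of them known as genes of higher expression in female than in male mouse liver. Sult2b1 was at 0.762 to 1.42 FPKM in the tumours and had 3 reads in all normal livers. With equal totals it passed the filter, through the tumours alone, and was called higher in both tumour groups. That call follows in part from the filter. Sult6b1 had 3 reads in each group.

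**Figure D4:**
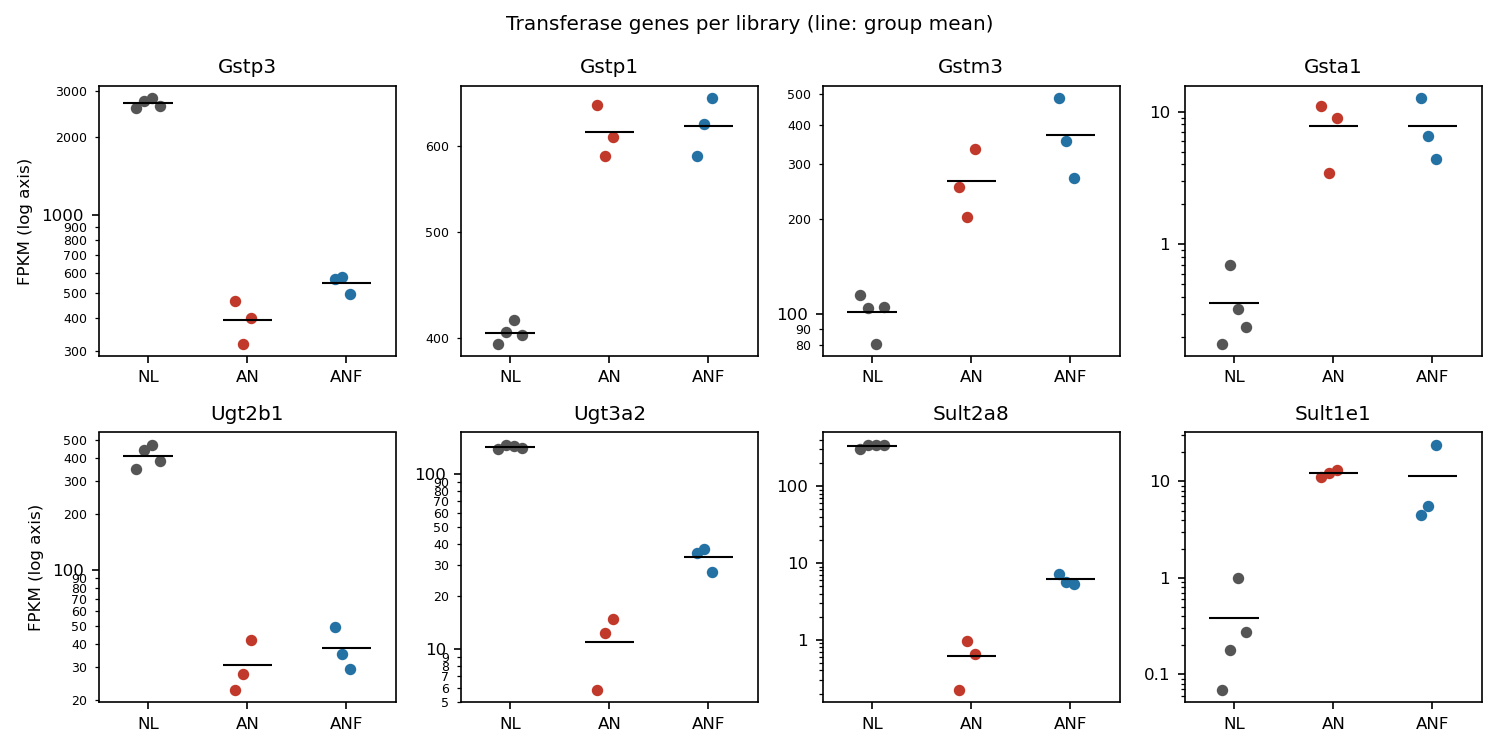
FPKM of 8 transferase genes in each library (points) with group means (lines), on log axes of different ranges; NL normal liver (n = 4), AN Akt/Nras (n = 3), ANF Akt/Nras/Foxo1AAA (n = 3). Gstp3, Ugt2b1, Ugt3a2 and Sult2a8 are lower and Gstp1, Gstm3, Gsta1 and Sult1e1 higher in every tumour than in any normal liver.

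Between the tumour groups, the transferase genes were higher with Foxo1AAA or did not pass the test. By limma, 15 of the 43 tested members were called higher in Akt/Nras/Foxo1AAA than in Akt/Nras tumours, against 7.93% of all genes tested. None was called lower, against 4.13% of all genes (0.555% for a fall by at least 1 on the log2 scale), and at an unadjusted p under 0.05 the numbers were 19 higher and 0 lower. A voom fit on recovered reads called 17 higher and 0 lower, against 9.84% and 6.17% of all genes. The median log2 change of the tested members was 0.43, against -0.01 for all genes. With equal totals 12 were called higher, against 5.26% of all genes, and 1, Sult2b1, lower, against 26.6%. The medians were then 0.22 for the members and -0.22 for all genes. The 15 calls compare with 12.1% of all genes called in either direction. The called genes were 7 UGT, 6 GST and 2 SULT genes, and 4 of them rose by at least 1 on the log2 scale, against 1.81% of all genes.

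Sult2a8 changed most, by 2.16 ± 0.16 on the log2 scale (limma adjusted p = 0.000207) or 9.96-fold in mean FPKM, and was still 54.8-fold below normal liver. Ugt3a2 and Ugt3a1 rose by 1.60 ± 0.25 and 1.47 ± 0.23 (limma adjusted p = 0.00636 and 0.00638). Sult4a1 rose by 1.32 ± 0.25 (adjusted p = 0.0108 by limma), in the same direction as in Akt/Nras tumours against normal liver. In the first 3 of these genes the Akt/Nras/Foxo1AAA tumours lay between the Akt/Nras tumours and normal liver.

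The other called UGT genes were Ugt2a3 (0.92), Ugt1a1 (0.70), Ugt2b36 (0.59), Ugt2b34 (0.54) and Ugt2b5 (0.43), in log2 units. Ugt2b36 illustrates their spread, with 409, 487, 453 and 461 FPKM in normal liver, 143, 136 and 161 in Akt/Nras and 271, 218 and 182 in Akt/Nras/Foxo1AAA tumours. The called GST genes were Gstm4 (0.81), Gstk1 (0.77), Gstm6 (0.74), Gstm1 (0.62), Gsta3 (0.49) and Gstp3 (0.48). With equal totals Gsta3 (0.24, adjusted p = 0.0932 by limma), Gstp3 (0.24, adjusted p = 0.149) and Ugt2b5 (0.18, adjusted p = 0.136) were no longer called. Gstm4 had 40.6, 37.0, 30.5 and 38.2 FPKM in normal liver, 16.9, 16.2 and 20 in Akt/Nras and 43.3, 27.9 and 26.2 in Akt/Nras/Foxo1AAA tumours, and the last overlapped normal liver. Ugt2b34 had 157, 168, 167 and 181 FPKM in normal liver, 47.0, 53.0 and 49.3 in Akt/Nras and 78.8, 73.0 and 67.6 in Akt/Nras/Foxo1AAA tumours, with no overlap.

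**Figure D5:**
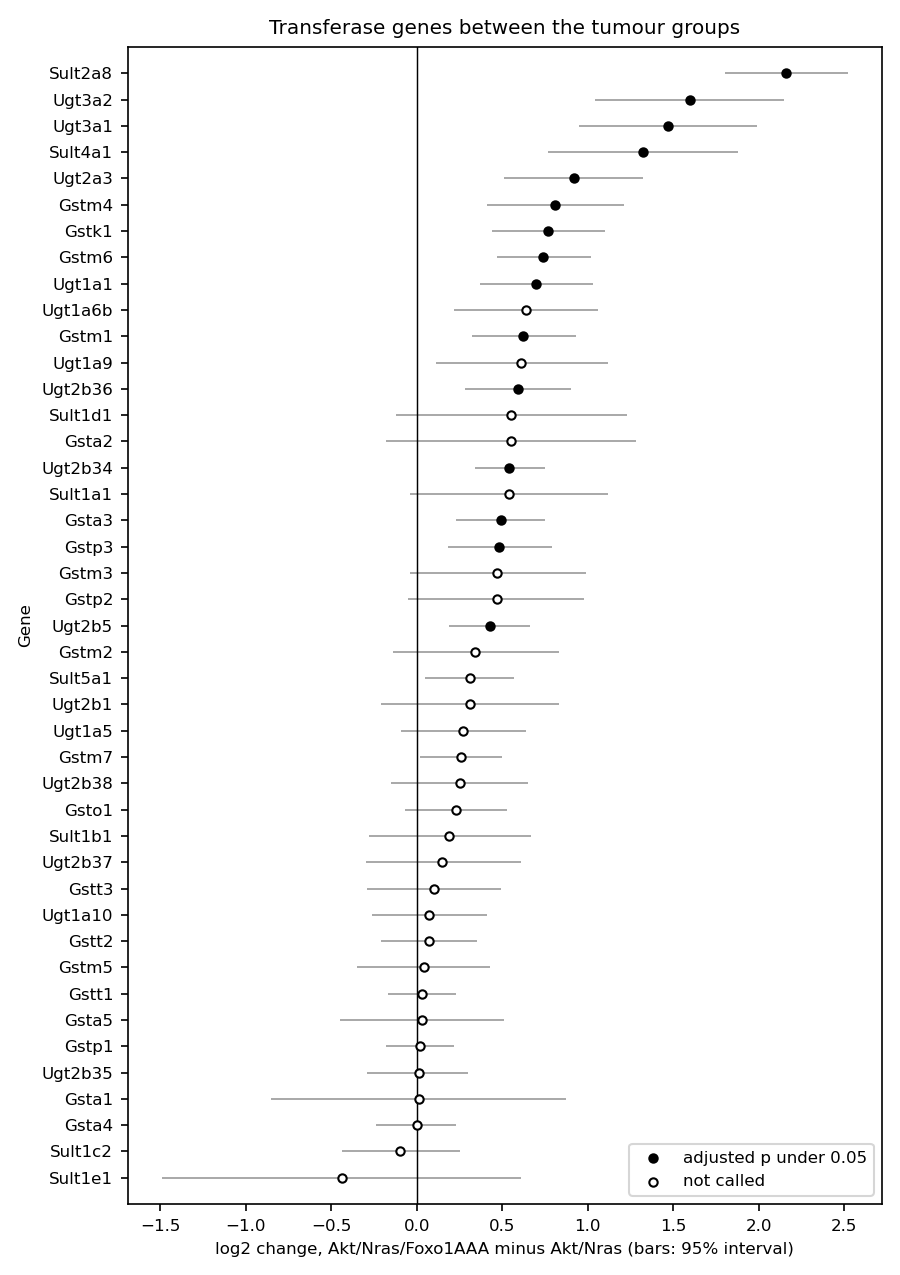
Log2 change of each tested transferase gene between the tumour groups (Akt/Nras/Foxo1AAA minus Akt/Nras), on the log2(FPKM + 1) scale, ordered by size, with 95% intervals; filled points passed an adjusted p under 0.05. The 15 filled points all lie right of 0, from 0.43 for Ugt2b5 to 2.16 for Sult2a8.

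Of the 7 members that rose in tumours against normal liver, Sult4a1 alone was called between the tumour groups. The changes were 0.02 for Gstp1 (95% interval -0.18 to 0.22), 0.04 for Gstm5 (-0.35 to 0.43), 0.03 for Gsta5 (-0.45 to 0.51) and 0.01 for Gsta1 (-0.85 to 0.87). Gstm3 changed by 0.47 (-0.04 to 0.99) and Sult1e1 by -0.44 (-1.49 to 0.61). None of these 6 was called. Without replicate 3 of the Akt/Nras/Foxo1AAA tumours, Sult1e1 was called lower in that group (-1.13, adjusted p = 0.0135 by limma), the other two libraries lying below all 3 Akt/Nras tumours. The wide intervals of Gsta1 and Sult1e1 leave room for sizeable changes.

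Of the 15 calls, 8 held when any single library was left out: Ugt2a3, Ugt2b34, Ugt3a1, Ugt3a2, Gstk1, Gstm6, Sult2a8 and Sult4a1. Gstp3 lost its call in 8 of the 10 such fits (adjusted p up to 0.142), and Ugt2b5, Ugt2b36, Gsta3, Gstm1, Gstm4 and Ugt1a1 in 1 to 5 fits (largest adjusted p 0.099). The number called fell to 10 without replicate 2 of Akt/Nras or replicate 1 of Akt/Nras/Foxo1AAA and to 9 without replicate 2 of Akt/Nras/Foxo1AAA. The shares over all genes were then 5.56%, 3.19% and 3.6%. Hepatocyte and cholangiocyte markers moved with these calls in the main fit. Of 12 hepatocyte markers 5 were higher and none lower, against 7.93% and 4.13% of all genes. Of 7 tested cholangiocyte markers 5 were lower and none higher, including Krt19 (16.4 ± 11.0 to 1.77 ± 0.391 FPKM). With equal totals 26.6% of all genes were lower, and marker counts on that scale are not given. The part of these markers in the transferase result was not tested.

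The supply and use of glucuronic acid was covered by 9 tested genes, of which 6 were lower and 2, Miox and Gusb, higher in each tumour group. With equal totals 5 were higher in each and 4 and 3 lower. For this and the following lists, the shares over all genes were 37.9% lower and 31.1% higher in Akt/Nras and 36.5% and 26.8% in Akt/Nras/Foxo1AAA tumours. With equal totals they were 12.9% and 70.7%, and 12.7% and 62.1%. Gusb encodes the glucuronidase that removes glucuronic acid. Rgn and Gulo, which turn glucuronic acid towards vitamin C, fell most. Rgn went from 1278 ± 58.8 to 70.9 ± 29.2 and 189 ± 31.3 FPKM, and Gulo from 484 ± 31.3 to 97.0 ± 38.3 and 191 ± 6.91 FPKM. Ugdh, the enzyme that makes UDP-glucuronic acid, was at 21.1 ± 2.28, 13.0 ± 1.31 and 16.1 ± 1.55 FPKM. It was called lower in both (log2 -0.66 and -0.37), but higher with equal totals (0.26 and 0.31), so its direction rests on the scaling. Miox, which breaks down inositol to glucuronic acid, rose from 0.0557 ± 0.0736 to 4.68 ± 2.53 and 4.96 ± 0.966 FPKM.

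For glutathione, 12 genes of its synthesis and of mercapturate formation were tested, and 5 were higher and 6 lower in Akt/Nras tumours and 4 higher and 6 lower in Akt/Nras/Foxo1AAA tumours, near the shares over all genes. With equal totals the counts were 6 higher and 4 lower, and 7 higher and 5 lower. The catalytic subunit of glutamate-cysteine ligase, Gclc, rose from 74.0 ± 9.16 to 122 ± 20.1 and 103 ± 5.26 FPKM (log2 0.71 and 0.48). Its modifier subunit Gclm was called lower (-0.85 and -0.32), although with equal totals these changes were 0.10 and 0.39. The aminoacylase genes Acy1 and Acy3, which act on N-acetyl amino acids, fell by 2.01 and 1.85 on the log2 scale in Akt/Nras tumours.

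Of 11 tested genes of sulfate activation and removal, 5 rose in each tumour group and 6 and 5 fell, against 7 higher and 4 lower in each with equal totals. The PAPS synthases moved apart. Papss2, the main form in liver, went from 83.0 ± 6.66 to 4.26 ± 1.19 and 11.7 ± 2.55 FPKM (log2 -4.02 and -2.74, limma adjusted p = 1.90e-08 and 3.49e-07). It was higher in Akt/Nras/Foxo1AAA than in Akt/Nras tumours by 1.28 (adjusted p = 0.00416 by limma). Papss1 rose from 8.93 ± 0.984 to 17.5 ± 3.32 and 15.0 ± 1.35 FPKM. The sulfate transporter Slc26a1 fell from 71.5 ± 9.58 to 11.8 ± 1.85 and 26.6 ± 7.01 FPKM.

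Conjugates leave the hepatocyte through ABC transporters and organic anions enter through Slco transporters. Of 11 tested genes 8 were lower and 3 higher in Akt/Nras tumours, and 7 lower and 3 higher in Akt/Nras/Foxo1AAA tumours, while with equal totals 6 were lower and 3 higher in each. The uptake transporters Slco1a1 and Slco1b2 fell from 236 ± 18.4 and 321 ± 19.3 FPKM to 7.12 ± 4.48 and 14.2 ± 8.71 in Akt/Nras tumours. They were at 21.6 ± 8.06 and 53.5 ± 12.9 in Akt/Nras/Foxo1AAA tumours. Abcc4 and Abcc5, efflux pumps of the basolateral side, rose from 0.334 ± 0.232 and 0.516 ± 0.24 FPKM to 6.05 ± 1.74 and 6.41 ± 2.22 in Akt/Nras tumours. Of 12 tested conjugating enzymes outside the families, 9 and 7 were lower, and 2 (Mgst2 and Gstcd) and 0 were higher. With equal totals 4 and 6 of 11 were lower. In Akt/Nras tumours the falls were led by the glycine conjugating gene Glyat and the microsomal transferase Mgst1 (2047 ± 157 to 339 ± 47.1 FPKM). Mgst1 was at 471 ± 68.3 FPKM in Akt/Nras/Foxo1AAA tumours.

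Among 18 tested regulators 13 were lower in each tumour group and 2 and 1 were higher, while with equal totals 6 were lower and 5 and 6 higher. Nr1i3, which encodes CAR, fell from 9.31 ± 0.554 to 0.303 ± 0.078 and 0.950 ± 0.248 FPKM, and the growth hormone receptor Ghr from 111 ± 6.56 to 10.1 ± 0.914 and 16 ± 3.36 FPKM. Nfe2l2, which encodes NRF2, rose from 17 ± 2.71 to 42.2 ± 3.00 and 37.4 ± 2.98 FPKM.

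The lists of known targets outside the families differed in direction. Of 13 tested NRF2 targets, 9 were higher and 3 lower in Akt/Nras tumours, and 10 higher and 3 lower in Akt/Nras/Foxo1AAA tumours. Among them Cbr3 went from 0.479 ± 0.269 to 12.2 ± 3.51 and 8.35 ± 1.34 FPKM and Nqo1 from 3.10 ± 0.404 to 10.2 ± 3.60 and 10.2 ± 1.65 FPKM. Of 7 tested CAR and PXR targets, 7 and 6 were lower and none was higher, led by Ces2a (278 ± 35.6 to 4.21 ± 0.569 and 7.54 ± 1.37 FPKM). Of the 4 tested AHR targets 2, Cyp1b1 and Nqo1, were higher and 1, Cyp1a2, was lower in each. Nqo1 stands in both the NRF2 and the AHR list, so these lists are not separate. Counts with equal totals are not given for the target lists or for the sex-dependent genes below.

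Genes of sex-dependent expression in liver were followed because several members belong to them. Y-linked Ddx3y was present in all 10 libraries (7.87 to 15.2 FPKM) and Xist was at most 0.019 FPKM. Of 10 tested male-biased genes 9 were lower in each tumour group, led by Hsd3b5 (247 ± 27 to 0.103 ± 0.148 and 0.0629 ± 0.0153 FPKM). Mup20 was higher in Akt/Nras/Foxo1AAA tumours. Of 6 tested female-biased genes 4 and 5 were higher and none was lower, led by Cyp2a4 (0.817 ± 1.0 to 55.3 ± 19.5 and 182 ± 97.6 FPKM).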

How the data were processed

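RNA sequencing of 10 mouse liver samples was used, grouped by their titles into 4 normal livers, 3 Akt/Nras and 3 Akt/Nras/Foxo1AAA tumours. The authors deposited FPKM values per gene and library, per the file headers, with no replicates pooled. RNA was extracted with a column kit per the labels' protocols, which name polyA capture or rRNA removal without saying which. FastQC 0.11.7 and GRCm 38 are named in the submitters' processing notes, while aligner, counter and strand setting were not given in the sources used here. Since the build of the table's coordinates is unnamed, none of them is printed. FPKM times gene length gave whole reads, within 0.02 reads, for 100% of values under 1000 reads and 99.95% of all. Reads in genes numbered 13585055 to 21262035 per library, which limits precision for members of few reads. No column of values was left unmapped.

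Genes with at least 1 FPKM in at least 3 libraries entered 1 limma 3.58.1 fit (R 4.3.3, variance trend) on log2(FPKM + 1), so that log2 changes understate those of low genes, whereas folds are ratios of mean FPKM. Tests were two-sided, adjusted by Benjamini-Hochberg over all tested genes and called at 0.05. The method was also run on simulated reads with the levels and scatter of normal liver and 200 changed genes. Far more genes were called in the data, and the scaling differed between groups, so that run does not vouch for these calls. Alternatives changed the pseudocount (0.1), the filter (5 FPKM, or none), the scaling (equal totals, with or without the 50 most abundant genes), the test (voom on recovered reads) and the libraries. The voom fit used the FPKM divisor of each library as its size, so it kept the deposited scaling. Same-numbered samples correlated at -0.17 to 0.11 in their deviations from group means, and other pairs at -0.15 to 0.2. No pairing was seen, but correlations among so few libraries cannot exclude one. Members sharing reads were looked for as 50-base windows of transcripts (GENCODE annotation of GRCm38). Members and lists were chosen with earlier results of these data known. Values are given for the most abundant member of each subfamily, the largest called rise and fall in each comparison and all members called between tumours. From each list up to 2 rises and falls are named, and other genes were named after their values were seen.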

Additional observations from a re-analysis of the deposited data

Results flagged for a closer look

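In the normal livers, 1 of 4 libraries stood apart from the other 3 for 4 members, by the ratio of its gap to the range of the group. These were Gstm2 in replicate 3 (51.2 FPKM), Gstt2 in replicate 2 (54.3 FPKM), Sult2a8 in replicate 1 (307 FPKM) and Sult4a1 in replicate 4 (0.0452 FPKM, a single read). Chance flags about 1 in 20 groups of this size.

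The tumour groups differed in the limma test for 15 members, each higher in Akt/Nras/Foxo1AAA than in Akt/Nras tumours. The log2 changes were 0.70 for Ugt1a1, 0.92 for Ugt2a3, 0.54 for Ugt2b34, 0.59 for Ugt2b36, 0.43 for Ugt2b5, 1.47 for Ugt3a1 and 1.60 for Ugt3a2. They were 0.49 for Gsta3, 0.77 for Gstk1, 0.62 for Gstm1, 0.81 for Gstm4, 0.74 for Gstm6 and 0.48 for Gstp3. They were 2.16 for Sult2a8 and 1.32 for Sult4a1.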

How the results depend on the processing

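All 34 and 32 calls of members against normal liver held when any single library was left out, and with voom on recovered reads. That voom fit took the FPKM divisor of each library as its size, so it kept the deposited scaling and did not test it. With equal totals the members called higher than in normal liver numbered 14 in Akt/Nras and 17 in Akt/Nras/Foxo1AAA tumours, and 12 and 15 where the totals skipped the 50 highest genes. The shares over all genes were 70.7% and 62.1%, and then 61.5% and 56.2%. Family totals with equal library totals were 1592.7, 734.4 and 887.6 for UGT (normal, Akt/Nras, Akt/Nras/Foxo1AAA), 4710.9, 4557.2 and 5160.0 for GST, and 625.3 and 483.1 for SULT in normal liver and Akt/Nras. The log2 change of Gstm1 in Akt/Nras tumours turned from -0.31 to 0.66 with equal totals and 0.40 without the 50 highest genes, and that of Gstm4 in Akt/Nras/Foxo1AAA tumours from -0.20 to 0.51 with equal totals. Between the tumour groups, the members called higher ranged from 9 to 16 and those called lower from 0 to 1 when 1 library was left out (Sult1e1 was called lower without replicate 3 of Akt/Nras/Foxo1AAA). Equal totals gave 12 higher and 1 lower (Sult2b1), against 5.26% and 26.6% of all genes. With no filter on low values, for which many more low genes were tested, 10 were higher, against 2.17%. With the replicate number as a block, 6 members were called higher, against 2.67% of all genes. Ugt2a3 and Gstk1, which kept their calls when any single library was left out, were among those lost. Correlations between same-numbered samples were -0.17 to 0.11, and not every sample correlated best with its own number. They show no pairing but, with so few libraries, cannot exclude one. The planned count model was not run because the deposited unit is FPKM, and the voom fit on recovered reads, chosen after seeing the data, took its place. The FOXO motif and the window check were also added after seeing the data. Few reads limit Gsta1, Sult1e1 and Sult4a1 in normal liver.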
